A study of Mus musculus with 6 samples.

Results

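The gastric proton pump, the H+/K+ ATPase, is built from a catalytic α subunit encoded by Atp4a and an accessory β subunit encoded by Atp4b. Their RNA was compared between parietal cells (the stomach cells that secrete acid) of control mice and of mice whose parietal cells express noggin. Noggin is a secreted protein that binds bone morphogenetic proteins (BMPs) and keeps them from their receptors. The members were chosen by name and are 2 of the 23284 genes of the deposited table. Both were among the 10644 genes that reached 1 FPKM in 3 or more libraries, the filter used for testing. FPKM is a read level divided by transcript length and by the size of the library, which is meant to let levels of different genes be compared. In these libraries the fold change still moved with transcript length, as given below, so comparisons between genes carry that limit.

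There were 6 libraries from sorted mouse stomach cells, 3 per group. The control libraries have the genotype label Transgenic-Tom and the noggin libraries Transgenic-Tom-nog. Per the series' design text, the noggin mice carried H+/K+-Cre, H+/K+-Nog and Rosa26-tdTom together, and cells marked by tdTomato, a red fluorescent protein, were sorted by flow cytometry. Whether the controls also carried the Cre is not spelled out. Age, sex and any pooling of animals are likewise missing from the sources used here. The promoter is named only as H+/K+: which subunit gene supplied it, and whether a transgene contains transcribed pump sequence, is not stated. The titles call the libraries biological replicates without naming the animals behind them, so the spread between libraries may be partly technical. The limma p-values also draw on the spread of other genes of like level.

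The α subunit is a P-type ATPase: it takes a phosphate from ATP onto itself during each cycle and exchanges cytosolic protons for potassium against a very steep gradient. The β subunit is a heavily glycosylated protein with a single membrane span that the α subunit needs for folding, for leaving the endoplasmic reticulum and for stability at the acid-facing membrane. In the resting cell the assembled pump lies in tubulovesicles, which fuse with the apical canaliculus when histamine, gastrin or acetylcholine stimulates the cell.

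In mm10, Atp4a lies on chromosome 7 from 30712209 to 30725534 on the plus strand, and its longest annotated transcript in GENCODE M21 has 22 exons and 3485 bases. Atp4b lies on chromosome 8 from 13386205 to 13396825 on the minus strand, with a longest transcript of 7 exons and 1378 bases. Of the 5 annotated Atp4a transcripts 2 are protein-coding, and of the 2 of Atp4b 1 is. The table gives 1 value per gene, so spliced and retained-intron forms are not separated. No annotated gene overlaps Atp4a. An unclassified gene model on the opposite strand, Gm45410, lies within Atp4b and has no row of its own in the table. No source used here says that strand was kept, so its reads could not be told apart from those of Atp4b.

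The 250 bases before the start site of Atp4a, the subunit that was lower in noggin libraries, are shown because BMP signals reach DNA through Smad proteins, whose short site is GTCT, and because Gata4 and Gata6 are gastric transcription factors whose core site is GATA. The sequence is from RefSeq (GRCm38.p6, chr7:30711959-30712208, plus strand) and capitals mark GTCT and GATA on either strand.
Atp4a: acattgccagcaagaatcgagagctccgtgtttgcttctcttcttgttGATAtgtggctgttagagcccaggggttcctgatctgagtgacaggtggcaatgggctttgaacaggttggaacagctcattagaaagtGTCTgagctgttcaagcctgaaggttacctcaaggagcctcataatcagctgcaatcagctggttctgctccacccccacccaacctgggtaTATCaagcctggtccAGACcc
The window holds 2 matches to GTCT and 2 to GATA, on both strands together. These letters are common: 82.9% of 32851 promoter windows of the same length hold GTCT and 53.6% hold GATA. Longer words were searched on both strands as well and were not found in this window. For GATA factors these were AGATAA, held by 9.99% of all windows, and the variant TGATAA, held by 7.94%; both contain the core GATA. For estrogen-related receptors the word was AAGGTCA (4.08% of windows). A doubled Smad site, GTCTAGAC, which contains the short site, is held by 0.167% of windows. The GC-rich word of BMP response elements, GGCGCC, is held by 9.59% and the TATA box word, TATAAA, by 12.4%. Of the members, Atp4a was matched in the promoter table and Atp4b was not.

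Nog, the check of the labels, ran from 0.871 to 1.97 FPKM in the controls and from 2281 to 2734 FPKM in the noggin libraries. All 8 parietal cell markers, the pump subunits among them, were detected in every library. In bulk RNA, fewer parietal cells and less pump RNA per cell cannot be told apart. Noggin replicate 3 had 542 tested genes listed at 0, against 19 to 34 in the others, and correlated with them at a Spearman coefficient of 0.802 to 0.846 over tested genes, so the subunits' values and the list counts are also given without it. Markers of other cells were counted over all those found, also those under the filter for testing. Over all tested genes 20.3% were higher and 18.0% lower without overlap between groups. The leukocyte markers Ptprc and Lyz2 and the erythroid marker Hba-a2, counted as higher below, were under the filter. So were 7 of the 8 stromal markers. Over 7 chief cell markers found the summed level was 60400 to 111290 FPKM in controls and 130279 to 356007 FPKM in noggin libraries. Of these 7, 2 were higher without overlap, a share near that of all genes. Cpb1 and Lipf were at 0 in at least 1 library. As a percent of the library's total FPKM the chief cell sum was at 17.57, 13.72 and 10.14 in control replicates 1, 2 and 3. It was at 17.87, 16.34 and 29.96 percent in noggin replicates 1, 2 and 3, so the groups overlapped. The 7 mucous neck cell markers were all higher without overlap (2483 to 3394 against 10855 to 25936 FPKM, none at 0). Of 9 enteroendocrine markers 4 were higher without overlap (443 to 2689 against 1901 to 28649.8 FPKM, none at 0), and of 10 leukocyte markers 6 were (2.34 to 2.89 against 19.9 to 100.3 FPKM, Cd3e, Cd79a, Cd68 and Itgam at 0 in at least 1 library). Of 8 pit cell markers 2 were lower without overlap, also near the share of all genes (22346 to 26588 against 23416 to 49907 FPKM, none at 0). Of 8 stromal markers 0 parted the groups (1.06 to 1.94 against 1.38 to 7.42 FPKM, with Col1a1, Col1a2, Col3a1, Acta2 and Dcn at 0 in at least 1 library), and of 4 erythroid markers found 2 were higher (0.350 to 3.40 against 5.80 to 63.9 FPKM, Alas2 at 0 in at least 1 library). As a percent of total FPKM, the mucous neck and leukocyte sums still parted the groups. The other sums overlapped on that scale, the erythroid one among them. For Atp4a and Atp4b levels, the part of these cell types and of transcript length was not tested beyond the ratios and length corrections below.

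Atp4a RNA was lower in every noggin library than in every control library. It was at 13662, 13385 and 16218 FPKM in control replicates 1, 2 and 3 and at 5433, 7619 and 5773 FPKM in noggin replicates 1, 2 and 3. The groups did not overlap, and the highest noggin library, replicate 2, still lay well under the lowest control. The means were 14422 ± 1562 and 6275 ± 1176 FPKM (SD, n = 3 each), a 2.30-fold lower mean in noggin libraries. Among all tested genes, 18.0% were lower in noggin libraries with no overlap between groups, so this separation alone does not set Atp4a apart.

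Atp4b RNA was not lower on the deposited scale. It was at 16877, 21416.5 and 21149 FPKM in control replicates 1, 2 and 3 and at 25184, 22421 and 21467.5 FPKM in noggin replicates 1, 2 and 3. All noggin values lay above all control values, but the lowest noggin library and the highest control library were nearly level, and 20.3% of tested genes were higher with no overlap. The means were 19814 ± 2547 and 23024 ± 1930 FPKM (SD, n = 3 each), a ratio of 1.16.

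**Figure D1:**
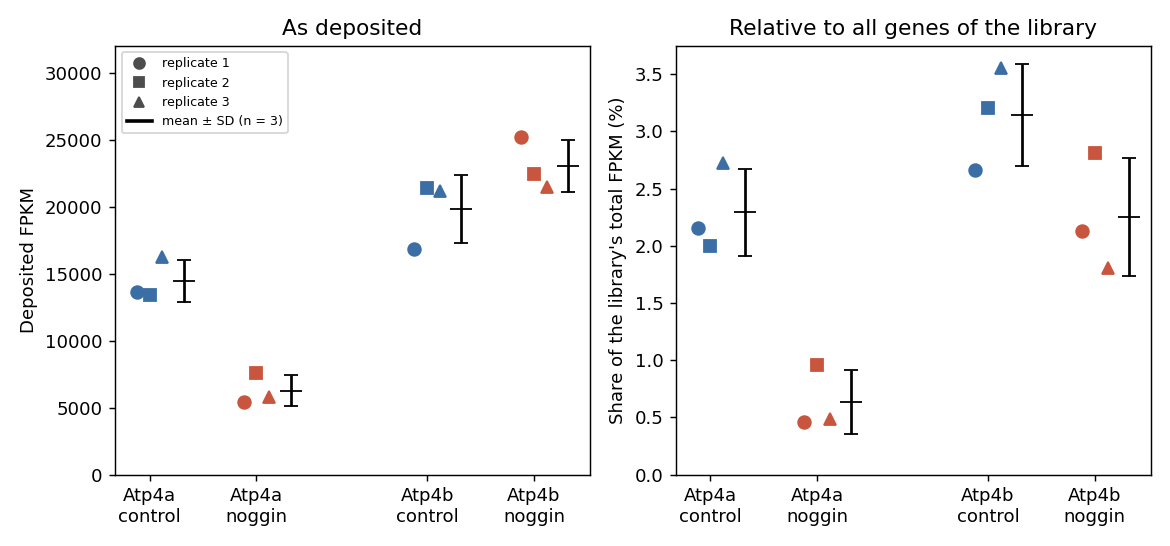
Levels of Atp4a and Atp4b in each library: deposited FPKM on the left, and the percent of the library's total FPKM on the right. Points are libraries, bars are the mean ± SD of 3. On the left Atp4a lies between 13385 and 16218 FPKM in controls and between 5433 and 7619 FPKM in noggin libraries, while Atp4b is not lower; on the right Atp4a separates the groups and the Atp4b groups overlap.

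Differences were tested with the moderated test of limma across all 10644 genes on log2(FPKM + 1), and a gene was called changed at a Benjamini-Hochberg adjusted p under 0.05. Of all tested genes 2.44% were called, 1.75% higher and 0.695% lower in noggin libraries, and 0 of the 2 pump subunits were called. Atp4a had a log2 fold change of -1.21 (SE 0.409, 95% interval -2.16 to -0.26, unadjusted p = 0.0190, limma adjusted p = 0.124). At an unadjusted p under 0.05 there were 26.7% of tested genes. Atp4b had a log2 fold change of 0.22 (SE 0.540, 95% interval -1.03 to 1.48, limma adjusted p = 0.814). This interval covers both a fall by 1.03 and a rise by 1.48 on the log2 scale, so the test does not show that Atp4b was unchanged. Its width rests partly on the spread of other genes of like level, as given below. Exact permutation tests of the log2 values gave p = 0.1 for Atp4a and for Atp4b, the smallest that 3 libraries against 3 allow (two-sided).

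Between the noggin libraries Atp4b varied less than most genes and Atp4a less than the median gene. Between the controls both varied about as much as other genes. The SD of the log2 values of Atp4a was 0.15 in controls and 0.26 in noggin libraries, and that of Atp4b 0.19 and 0.12. The median SD over tested genes was 0.15 in controls and 0.54 in noggin libraries. Over the 1868 of them with a mean of at least 50 FPKM it was 0.15 and 0.40. Of these 1868 genes, 28.0% varied no more than Atp4a between noggin libraries, and 6.64% no more than Atp4b. Without the mean-variance trend of limma the SE was 0.243 for Atp4a (limma adjusted p = 0.0686) and 0.227 for Atp4b (limma adjusted p = 0.552).

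Both subunits were among the most abundant transcripts of every library. Atp4b ranked 3 by FPKM in each control, below Pgc and Clps, which encode pepsinogen C and colipase, secreted digestive proteins. In noggin replicates 1, 2 and 3 it ranked 5, 4 and 4. Atp4a ranked 5, 5 and 4 in control replicates 1, 2 and 3 and 17, 8 and 12 in noggin replicates 1, 2 and 3. The transcripts above Atp4a in the noggin libraries but in no control were Apoa1 (an apolipoprotein) in all 3, Tff1, Tff2, Fth1 and Cox6a1 (trefoil peptides, a ferritin chain and a subunit of cytochrome oxidase) in replicates 1 and 3, the hormone gene Gast in replicates 2 and 3, and Ftl1, Cox4i1, Cox6b1, Cox6c, Gkn2 and 1810010D01Rik in replicate 1.

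The subunits were also set against each other within a library, where the scaling between libraries drops out. In controls Atp4a was at 0.810, 0.625 and 0.767 times the level of Atp4b in replicates 1, 2 and 3. In noggin libraries the ratio was 0.216, 0.340 and 0.269. Every noggin ratio lay below every control ratio, with no overlap, and Atp4b was the higher subunit by FPKM in all 6 libraries. On the log2 scale the ratio was -0.46 ± 0.20 in controls and -1.89 ± 0.33 in noggin libraries (SD, n = 3 each), a difference of -1.43, or a 2.70-fold lower ratio (two-sided exact permutation p = 0.1, the smallest possible). Summed over both subunits, pump RNA was between 30539 and 37367 FPKM in controls and between 27240 and 30617 FPKM in noggin libraries.

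Transcript length moved with the fold change in these libraries, and the members differ in length. Across 10542 tested genes with an annotated length, which are not independent replicates, log2 fold change and longest transcript had a Spearman correlation of -0.511. The 1908 genes of 1000 to 2000 bases, the class of Atp4b, had a median of 0.46, and the 2104 genes of 3000 to 4000 bases, the class of Atp4a, of -0.17. Within its class Atp4b lay between the quartiles of 0.10 and 0.81, and Atp4a lay below the lower quartile of -0.57.

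**Figure D2:**
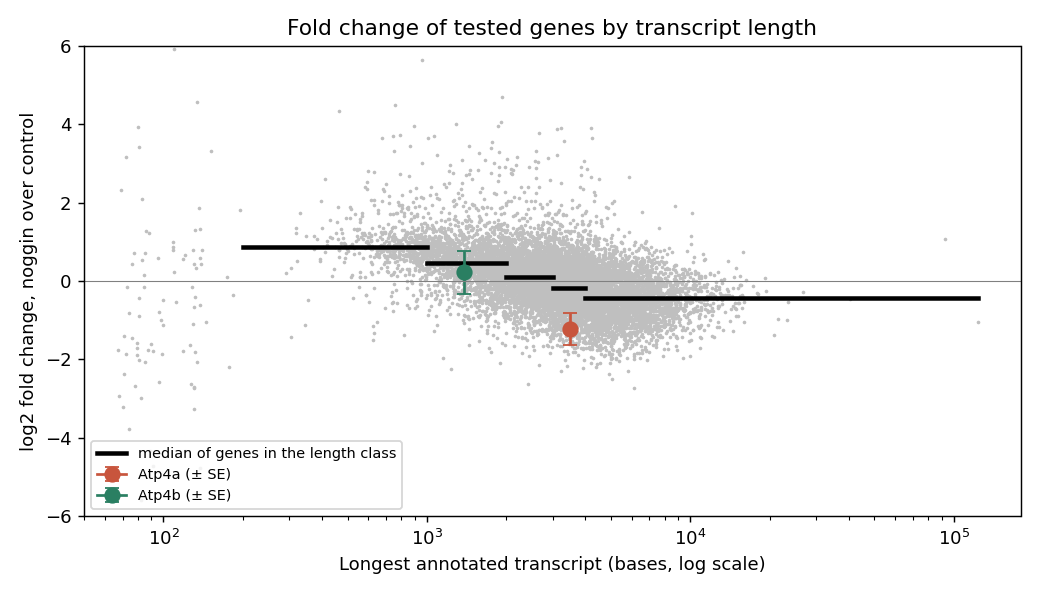
Log2 fold change of 10542 tested genes (grey points) against the longest annotated transcript in bases on a log axis, with black bars for the median of each length class and the members with their SE. The medians fall from 0.87 under 1000 bases to -0.43 from 4000 bases. Atp4b at 0.22 lies between the lower quartile and the median of its class, and Atp4a at -1.21 lies below that of its class; 4 genes lie beyond the vertical axis.

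The length trend was therefore removed from each library, and the subunits still differed in the same direction by less. With lengths taken as the median over all annotated transcripts of a gene, the log2 fold change was -0.93 for Atp4a (SE 0.331, limma adjusted p = 0.160) and 0.08 for Atp4b (SE 0.435, limma adjusted p = 0.924). The fold of the ratio then went from 2.70 to 2.02. That median counts short retained-intron forms, which puts Atp4a at 2601 and Atp4b at 1043.5 bases. With the longest transcript, an alternative chosen after seeing the data, Atp4a was at -1.06 (SE 0.205, limma adjusted p = 0.0650) and Atp4b at -0.31 (SE 0.257, limma adjusted p = 0.525). The ratio was then 0.638, 0.513 and 0.589 in control replicates 1, 2 and 3 and 0.360, 0.330 and 0.340 in noggin replicates 1, 2 and 3. It was 1.68-fold lower in noggin libraries, and the groups still did not overlap (exact permutation p = 0.1). By this measure the trend fitted at the length of Atp4b differed by 0.53 between groups and that at the length of Atp4a by -0.15.

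**Figure D3:**
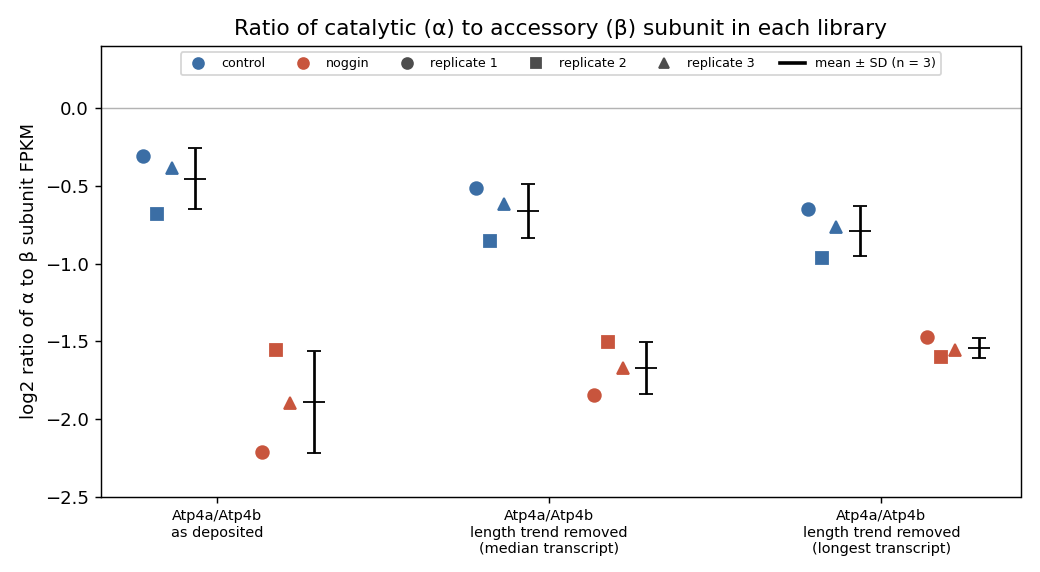
Log2 ratio of catalytic to accessory subunit in each library, for the proton pump as deposited and after removal of the length trend by either length. Points are libraries and bars the mean ± SD of 3. The proton pump ratio separates the groups in all 3 versions, at a mean of -1.89 against -0.46 as deposited and of -1.54 against -0.79 with the longest transcript.

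The direction of Atp4b depended on how the libraries were scaled, and that of Atp4a did not. Total FPKM ran from 595736 to 669124 in controls and from 797168 to 1188190 in noggin libraries. As a percent of the library's total, Atp4a was at 2.16, 2.00 and 2.72 in control replicates 1, 2 and 3 and at 0.459, 0.956 and 0.486 in noggin replicates 1, 2 and 3, again without overlap. Atp4b was at 2.67, 3.20 and 3.55 percent in the controls and at 2.13, 2.81 and 1.81 percent in the noggin libraries, and here the groups overlapped. Rescaling to the same total gave log2 fold changes of -1.93 for Atp4a (limma adjusted p = 0.0311, with 7.34% of all genes called) and -0.50 for Atp4b (limma adjusted p = 0.272). With that scaling the median over all tested genes moved from -0.03 to -0.65. Relative to that median Atp4a was at -1.28 and Atp4b at 0.16. Quantile normalization, which makes the libraries' distributions equal, gave -1.77 for Atp4a (limma adjusted p = 0.0208, with 4.45% of all genes called) and -0.56 for Atp4b (limma adjusted p = 0.110).

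Single libraries also decided the call of Atp4a. Without noggin replicate 2, the noggin library with the most Atp4a, it was called at -1.36 (SE 0.328, limma adjusted p = 0.0417), but 18.9% of all genes were then called. Without noggin replicate 3, Atp4a was at -1.16 (limma adjusted p = 0.170), Atp4b at 0.27 and the ratio difference at -1.43. Leaving out any library but noggin replicate 2 gave values between -1.12 and -1.26, none of them called. In all 16 alternative settings the log2 fold change of Atp4a was negative, and it was called in 3 of them. That of Atp4b was positive in 13 of 16 and called in 0. Most of these settings could not turn a sign. The filters, pseudocounts, replicate block and fit without trend hardly change the estimate of such abundant genes. Leaving out a library could not turn it either, as the groups did not overlap. Of rescaling, quantile normalization and the 2 length corrections, which could, only the correction by median transcript length left Atp4b positive, at 0.08.

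**Figure D4:**
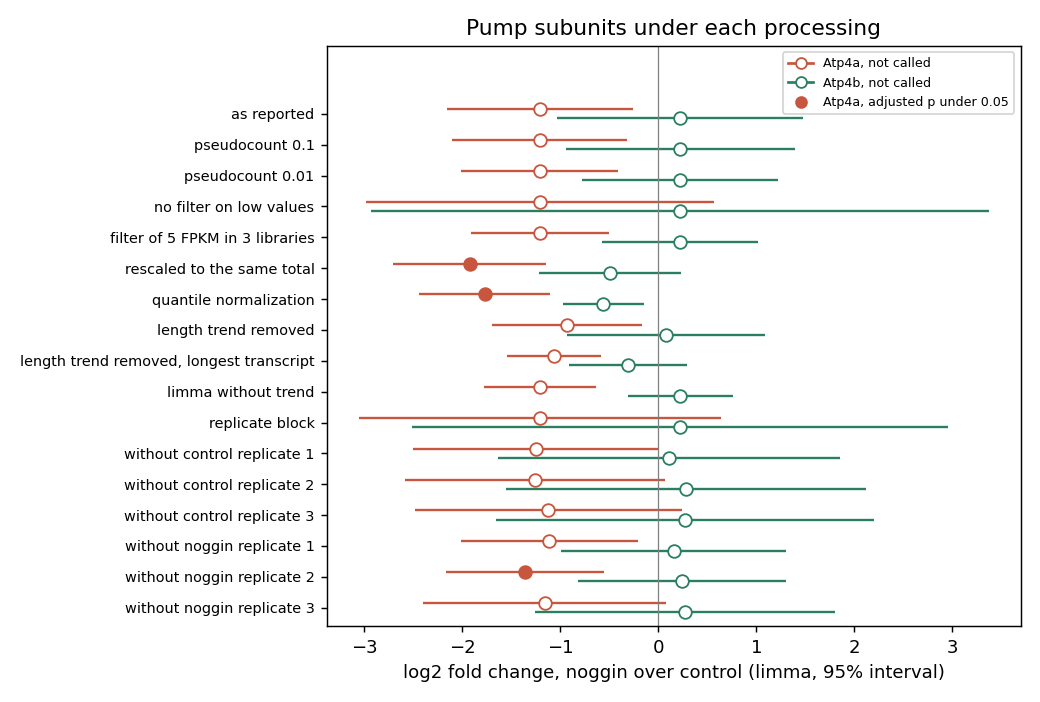
Log2 fold change of Atp4a and Atp4b, noggin over control, with the 95% interval of limma, as reported and under each of 16 alternatives. Filled points passed an adjusted p of 0.05. Atp4a lies between -1.93 and -0.93 throughout; Atp4b lies between -0.56 and 0.28.

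The β subunits of the Na+/K+ ATPase of the basolateral membrane belong to the same family as Atp4b, and Atp1b1 and Atp1b3 passed the filter. Atp1b1 was at 441.0, 455.1 and 477.1 FPKM in control replicates 1, 2 and 3 and at 461.6, 395.1 and 402.2 FPKM in noggin replicates 1, 2 and 3, with overlap. The control and noggin means were 457.7 ± 18.2 and 419.6 ± 36.5 FPKM for Atp1b1, and 89.995 ± 8.28 and 89.5 ± 10.9 FPKM for Atp1b3 (SD, n = 3 each). Neither was called, with log2 fold changes of -0.13 and -0.01 (limma adjusted p = 0.664 and 0.971). The sign of Atp1b3 turned without control replicate 2 or noggin replicate 1. With quantile normalization Atp1b1 was called lower, at a limma adjusted p = 0.0426, where 2.17% of all genes were called lower. Set against Atp1b1 of the same library, Atp4b was at a log2 ratio of 5.43 ± 0.15 in controls and 5.78 ± 0.04 in noggin libraries (SD, n = 3 each), a difference of 0.35 without overlap (exact permutation p = 0.1). With the longest-transcript correction that difference was -0.10 (exact permutation p = 0.7). Atp12a, the nongastric H+/K+ ATPase, was at most 0.323 FPKM in any library, and Atp1b2 was also under the filter.

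The other genes of acid secretion were lower more often than higher. Of 37 genes in 5 lists by role, none of which holds Atp4a or Atp4b, 34 were tested: 5 fell, 0 rose and 29 did not pass. Over all tested genes 0.695% fell. The median log2 fold change of the list was -0.49, beside -0.03 over all tested genes. Without overlap between groups 14 members were lower and 4 higher, or 41.2% and 11.8% of those tested, beside 18.0% and 20.3% of all tested genes. The median longest transcript was 3639 bases for the list and 3188 for all tested genes. The number of members that fell was 0 without control replicate 1, 2 or 3, where 0.047%, 0.0658% and 0.047% of all tested genes fell. It was 1 without noggin replicate 1 (0.197% of all) and 12 without noggin replicate 2 (7.75% of all), where 2 rose (11.2% of all). Without noggin replicate 3 it was 4 (2.63% of all), and 1 rose (2.92% of all).

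Potassium channels return to the lumen the potassium that the pump takes up. Of 6 tested members 0 were called. Kcnj15, Kcnj16 and Kcnq1 had log2 fold changes of -0.98 (SE 0.213), -0.90 (SE 0.212) and -0.85 (SE 0.199), with limma adjusted p = 0.0624, 0.0739 and 0.0709, and Kcne3, a β subunit, of 1.302 (SE 0.760). Kcne2, the partner of Kcnq1 in parietal cells, had means of 318 ± 37.9 FPKM (control) and 272 ± 28.8 FPKM (noggin), with overlap.

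Transporters of chloride, bicarbonate and cell volume supply the chloride of the acid and carry off the base. Of 9 tested members 3 fell, 6 did not pass and all 9 had a negative log2 fold change, at a median of -1.13. Those that fell were the chloride channel protein Clic6 (-1.42, SE 0.276, limma adjusted p = 0.0483) and the anion exchangers Slc26a7 (-1.41, SE 0.283, limma adjusted p = 0.04997) and Slc4a2 (-1.09, SE 0.182, limma adjusted p = 0.0356). Slc12a2, a sodium, potassium and chloride cotransporter, was at -1.13 (SE 0.329, limma adjusted p = 0.101). These transcripts were long, with a median of 4739 bases, and with the trend on the longest transcript removed the median was -0.79 and 0 were called (0.323% of all genes then fell).

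Carbonic anhydrases make the protons and bicarbonate from carbon dioxide and water. Of 4 tested members 0 were called, and 3 had positive log2 fold changes. Car2, the main cytosolic form in parietal cells, had means of 1754 ± 244 FPKM (control) and 3578 ± 116 FPKM (noggin), without overlap (log2 fold change 1.04, SE 0.263, limma adjusted p = 0.0816). Without noggin replicate 2 Car2 was called (limma adjusted p = 0.0327), where 11.2% of all tested genes were called higher. Car2 was at 0.32 after rescaling and 0.22 after quantile normalization. Car9 was at 0.78 (SE 0.258), and at 0.06 and 0.25 with those scalings. Car12 was at 1.45 (SE 0.753), from low levels of 0.637, 1.38 and 0.693 FPKM in control replicates 1, 2 and 3. In noggin replicates 1, 2 and 3 it was at 11.2, 6.88 and 0.390 FPKM, the last below every control. Without noggin replicate 3 Car12 was called at 2.39 (limma adjusted p = 0.0244), where 2.92% of all tested genes were called higher. Car14 was at -0.33 (SE 0.454) and turned positive with quantile normalization and without noggin replicate 3. It was also low, at 1.26 to 1.39 FPKM in controls and at 2.46, 0.832 and 0 FPKM in noggin replicates 1, 2 and 3.

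Receptors set the rate of secretion. Of 5 tested members 0 were called. Sstr2, the receptor for the inhibitor somatostatin, was at -1.05 (SE 0.290, limma adjusted p = 0.0951). Hrh2, the histamine receptor, was at -0.48 (SE 0.299), and at 0.00 with the length trend removed. Cckbr, the gastrin receptor, was at 0.52 (SE 0.369) and Ptger3, a prostaglandin receptor, at 0.17 (SE 0.420). Both turned negative with rescaling, Ptger3 also without noggin replicate 3.

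Proteins of membrane traffic and the actin cytoskeleton bring the pump to the canaliculus. Of 10 tested members 2 fell: Hip1r, an endocytic adaptor (-1.15, SE 0.173, limma adjusted p = 0.0295), and Lasp1, an actin-binding protein (-1.02, SE 0.178, limma adjusted p = 0.0401). The mean of Lasp1 was 134 ± 3.27 FPKM (control) and 66.0 ± 9.90 FPKM (noggin). Rab25 (0.63, SE 0.189) and the fusion protein Stx3 (0.77, SE 0.289) had positive values and were not called. Hip1r was at -0.69 with the longest-transcript correction and then not called (limma adjusted p = 0.0798). Rab25 turned negative with rescaling and with the longest-transcript correction.

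**Figure D5:**
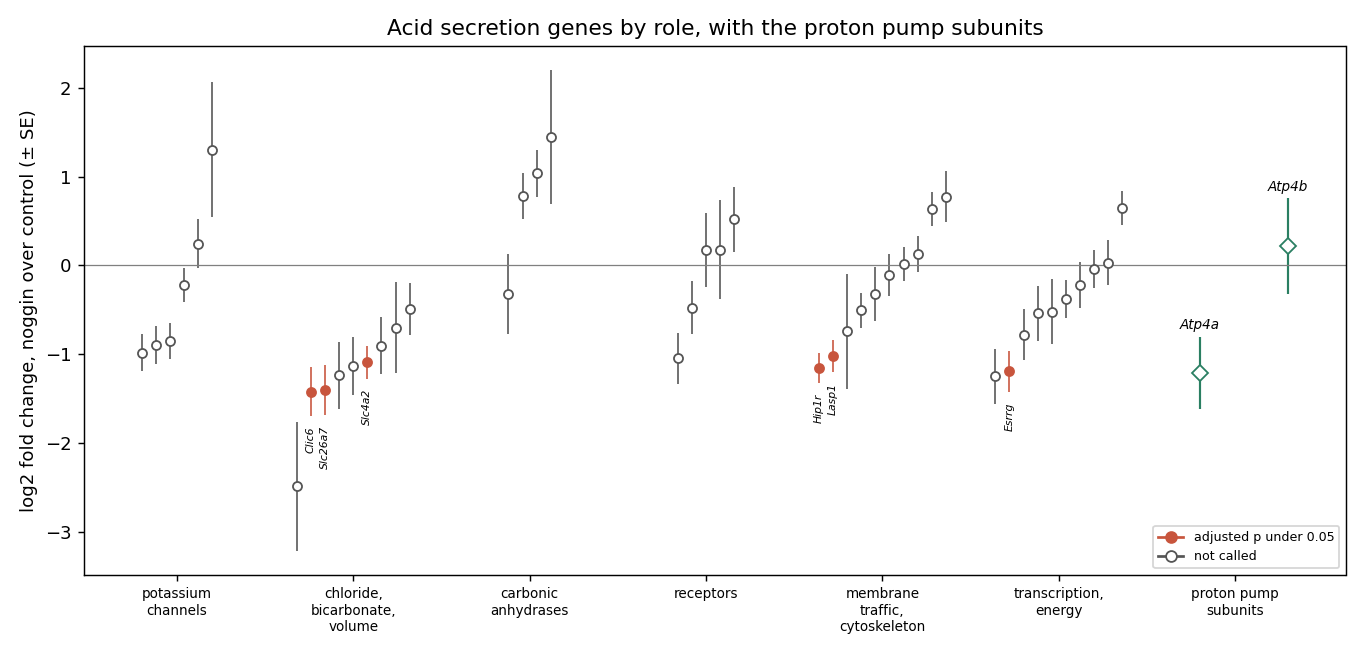
Log2 fold change, noggin over control, with its SE, for the tested genes of each role, the transcription and energy list and the proton pump subunits. Filled points passed an adjusted p of 0.05. Atp4a at -1.21 lies at the level of the transporters that fell, and Atp4b at 0.22 lies above all 9 of them.

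Regulators and energy genes of parietal cells had a median log2 fold change of -0.45, with 1 of 10 tested members called lower, beside 0.695% of all tested genes. Esrrg, a nuclear receptor, fell by 1.19 on the log2 scale (SE 0.234, limma adjusted p = 0.0483). With the length trend removed it was at -0.65 (limma adjusted p = 0.129), and it was called in 5 of 16 alternatives. Without control replicate 1, 2 or 3 or noggin replicate 1, 0 members of the list were called. Without noggin replicate 2 there were 2 lower and 1 higher, where 7.75% and 11.2% of all tested genes were. Without noggin replicate 3 there was 1 lower, where 2.63% of all tested genes were. Tfcp2l1, a transcription factor, was at -1.25 (SE 0.307, limma adjusted p = 0.0765) and Ppargc1a, a coactivator of mitochondrial genes, at -0.78 (SE 0.284). Ckmt1, mitochondrial creatine kinase, was at 0.65 (SE 0.192) and turned negative with rescaling and quantile normalization.

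Set against the median log2 level of the 34 acid secretion genes of the same library, Atp4a lay 8.19, 7.80 and 8.10 above it in control replicates 1, 2 and 3 and 7.84, 7.59 and 7.35 above it in noggin replicates 1, 2 and 3. These ranges overlapped. Atp4b lay 8.49, 8.48 and 8.48 above it in the controls and 10.05, 9.14 and 9.24 above it in the noggin libraries, without overlap. By this within-library measure the noggin libraries had less Atp4a by 0.44 and more Atp4b by 0.99 relative to the list, as differences of log2 values. Exact permutation gave p = 0.2 for Atp4a and p = 0.1 for Atp4b. The measure was not corrected for length: the longest transcript of Atp4b has 1378 bases, beside a median of 3639 for the list. How many other genes parted the groups by it was not counted.

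The genes of most alike pattern were sought by the smallest root mean square difference of log2 values over the 6 libraries, after subtraction of each gene's mean, among the 1868 tested genes whose mean reached 50 FPKM. For Atp4a they were Atp2a2 (0.112), the calcium pump of the endoplasmic reticulum and itself a P-type ATPase, Hip1r (0.119), Tmem20 (0.123), the serine protease gene Prss23 (0.126) and Slc4a2 (0.126). Atp2a2 was at 71.7, 82.7 and 88.8 FPKM in control replicates 1, 2 and 3 and at 31.5, 44.0 and 38.0 FPKM in noggin replicates 1, 2 and 3. The longest transcripts of these 5 genes ran from 3228 to 6735 bases.

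For Atp4b the most alike genes were Gde1 (0.053), a glycerophosphodiester phosphodiesterase, Igsf5 (0.071), a junction protein, Tspan1 (0.076), a tetraspanin, Skp1a (0.079), a ubiquitin ligase component, and Adh5 (0.082), a formaldehyde dehydrogenase. Gde1 was at 409, 483 and 485 FPKM in control replicates 1, 2 and 3 and at 596, 488 and 476 FPKM in noggin replicates 1, 2 and 3. The longest transcripts of these genes ran from 1582 to 3725 bases. Atp4b came at place 558 in the order for Atp4a, at a root mean square difference of 0.7496. With the members that far apart, no gene could be among the 5 of both.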

How the data were processed

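RNA was measured in 6 libraries of sorted cells. Per the labels' protocols a SMART-Seq low-input kit was used, with single-end reads of 50 bases. The deposited values are FPKM. mm10, bcl2fastq and FastQC 0.10.0 are named in the submitters' processing notes; aligner, quantifier and annotation: not given in the sources used here. Sequencing depth is unknown, so no counting interval is given. Groups and replicate numbers come from the sample titles.

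From 23284 genes, those reaching 1 FPKM in 3 or more libraries were kept, and log2(FPKM + 1), which understates the change of low genes, was fitted with limma 3.58.1 (R 4.3.3, mean-variance trend, two-sided, group as the only term). Adjusted p-values are Benjamini-Hochberg over 10644 genes. The fit and the length correction (a lowess curve of span 0.5, fitted per library to the deviations from the gene means) were tested on simulated data. Ratios were compared by exact permutation of libraries. Symbols were matched to GENCODE M21 (GRCm38, the build of mm10): 20911 directly, 1914 through an older symbol, 459 not.

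The members, the gene lists and the alternatives were chosen with earlier results of these data known. Named genes are the members, Nog, pump relatives, up to 4 per list (called genes first, then by unadjusted p), the 5 most alike to each member, genes above a member of rank under 20, and the fixed cell type markers; some genes this rule names are not reported here. Alternatives were pseudocounts of 0.1 and 0.01, no filter, a filter of 5 FPKM, rescaling to a total of 1000000, quantile normalization, 2 length corrections, no mean-variance trend, a replicate block and the omission of each library.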

Additional observations from a re-analysis of the deposited data

How the results depend on the processing

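The Atp4a log2 fold change ranged from -1.36 to -1.12 with 1 library left out, and became called after rescaling (-1.93), quantile normalization (-1.77) and omission of noggin replicate 2 (-1.36). Atp4b ranged from 0.11 to 0.28 with 1 library left out and was below 0 after quantile normalization (-0.56), rescaling (-0.50) and the longest-transcript correction (-0.31). The difference of the log2 ratio ranged from -1.60 to -1.27 with 1 library left out and kept its sign in all 13 alternatives. Most of these could not turn it. Rescaling, pseudocounts and the replicate block hardly touch a ratio within a library, and the ratios did not overlap between groups when a library was omitted. Quantile normalization, which could move it, gave -1.21, and the length corrections gave -1.01 (median transcript) and -0.75 (longest transcript). The cause of these shifts was not tested.

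The numbers of genes called higher and lower, 186 and 74, were 85 and 26 with a pseudocount of 0.1, 72 and 21 with 0.01, 8 and 4 without a filter, 115 and 666 after rescaling, 243 and 231 after quantile normalization, 87 and 34 with the longest-transcript correction and 66 and 17 without the trend. With 1 library left out they ran from 4 to 1187 and from 5 to 825. The acid secretion members that fell, 5, were 3, 2, 0, 13, 12, 1 and 0 in that order of settings, and 0 to 12 with 1 library left out, where 0 to 2 rose. The list median was -1.19 after rescaling and -0.57 to -0.31 with 1 library left out.

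The titles number the replicates without saying whether equal numbers pair the libraries. Same-numbered deviations correlated at 0.105, -0.141 and 0.005, and differently numbered ones between -0.129 and 0.12. These few correlations showed no pairing but cannot exclude it. With a replicate block 128 genes were higher and 32 lower, 0 acid secretion members fell, Atp4a was at -1.21 (limma adjusted p = 0.385) and Atp4b at 0.22, and the ratio difference was -1.43. The depth of the libraries is unknown, so what it limits could not be given.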

Other observations

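Noggin RNA, made from a transgene under an H+/K+ promoter, stood in a nearly constant proportion to Atp4b in the noggin libraries. It was at 10.9, 10.2 and 10.6 percent of the Atp4b level in replicates 1, 2 and 3, a mean of 10.6 ± 0.328 percent (SD, n = 3). Set against Atp4a the percentages were 50.3, 30.04 and 39.5, a mean of 40.0 ± 10.1 percent. The coefficient of variation was 3.10% for the first and 25.4% for the second. With 3 libraries, a proportion first noticed in them has no test here. Nor was it particular to Atp4b, as Nog also stood in a nearly constant proportion to Atp1b1 and Gde1. In noggin replicates 1, 2 and 3 Nog was at 2734, 2289 and 2281 FPKM. Atp1b1 was at 461.6, 395.1 and 402.2 FPKM there, and Gde1 at 596, 488 and 476 FPKM. The longest annotated Nog transcript has 1695 bases, nearer to the 1378 of Atp4b than to the 3485 of Atp4a. The length of the transgene's own transcript is not given in the sources used here.

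The next annotated protein-coding gene downstream of Atp4a, Tmem147 (chromosome 7, 30727701 to 30729540, minus strand), does not overlap it and was higher in noggin libraries, though not called. It was named after its values were seen, and was at 76.7, 83.5 and 73.1 FPKM in control replicates 1, 2 and 3 and at 187.5, 115.1 and 192.0 FPKM in noggin replicates 1, 2 and 3, without overlap. Its log2 fold change was 1.04 (SE 0.234, limma adjusted p = 0.0656). Its longest transcript has 875 bases, a length class whose median log2 fold change was 0.87.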
